A study of Mus musculus with 2 samples.

Results

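The genes described here are 39 nuclear hormone receptor genes of the mouse, chosen by symbol from the superfamily in the GENCODE M21 annotation of mm10, and all 39 were found among its 21938 protein-coding genes. They comprise 2 thyroid hormone receptors, 6 retinoid receptors, 3 PPAR genes, 6 sensors of lipids, bile acids, foreign compounds or vitamin D, 5 steroid receptors, 3 estrogen-related receptors, 11 orphan factors, and the 3 genes Nr5a1, Nr5a2 and Nr0b2. Chromatin accessibility was measured by DNase-seq, in which open DNA is cut by DNase I and the cut ends are sequenced, in frontal cortex of male B6CASTF1/J mice, an F1 hybrid strain, at 14 days of age. There were 2 libraries in 1 group, named replicate 1 and replicate 2 as numbered in the labels, each made from tissue of 3 males. The tissue samples were separate but carry 1 donor number, so it is not known whether the spread between the libraries is biological or technical. No other tissue, age or genotype was measured, no test between groups was possible, and the values below are descriptions with n = 2. The number of reads in each library was not used here, so no counting interval is given.

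Nuclear receptors are transcription factors with a zinc finger domain that binds DNA and a pocket that, in many members, holds a small lipid-soluble ligand. Several, such as the retinoic acid, thyroid hormone, PPAR and liver X receptors, bind DNA as heterodimers with a retinoid X receptor at repeats of the hexamer AGGTCA, whereas the glucocorticoid, mineralocorticoid and progesterone receptors bind as dimers to repeats of AGAACA. In the postnatal brain they are known as the route by which thyroid hormone, retinoic acid and corticosteroids act on neurons and glia.

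The deposited peak lists gave 75753 peaks in replicate 1 and 77035 in replicate 2, covering 15.1 and 16.6 Mb, and the footprint lists 156390 and 202779 footprints, with a median length of 10 bp in each library. A peak's height is the signal that the authors deposited, in units of their own that differ by library, and it ranks peaks within a library. A mean ± SD or a ratio across the libraries below therefore takes in any difference in scale as well as the spread. A footprint is a short stretch protected from cutting inside open DNA. A promoter is defined here as the 1000 bp on each side of any annotated start site of the gene, its height as that of the tallest peak there, and a shared region as overlapping peaks of both libraries joined together. The tissue label was checked on markers: Emx1, Tbr1, Neurod6 and Camk2a, genes of cortical neurons, each had a promoter peak in both libraries, against 0 of 5 of liver and 0 of 4 of gut. The liver markers Apoa1 and Ttr had a peak in replicate 1 alone. Among markers of other cell types 1 of 4 of microglia (Cx3cr1), 1 of 4 of endothelium (Flt1), 0 of 3 of oligodendrocytes, 1 of 4 of astrocytes (Gfap) and 1 of 4 of adrenal and gonad (Star) had one in both libraries. Heights at Emx1 (1.04 and 0.968) were close to those at Gfap (1.04 and 0.909), whereas Tbr1, Neurod6 and Camk2a stood above Gfap in each library.

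The DNA behind the results is shown first, for the 3 tallest promoters, for the promoter of Nr2e1 with its cAMP response element, and for the 3 distal regions on which the accounts of Thra, Nr2f1 and Hnf4a turn. Each line gives mm10 coordinates and strand, and the sequence was read 5′ to 3′ from the GRCm38 (mm10) RefSeq assembly. Capitals mark bases inside footprints of both libraries, and annotated exons were left out of the promoter stretches.
Esrra promoter, chr19:6921814-6922100, minus strand: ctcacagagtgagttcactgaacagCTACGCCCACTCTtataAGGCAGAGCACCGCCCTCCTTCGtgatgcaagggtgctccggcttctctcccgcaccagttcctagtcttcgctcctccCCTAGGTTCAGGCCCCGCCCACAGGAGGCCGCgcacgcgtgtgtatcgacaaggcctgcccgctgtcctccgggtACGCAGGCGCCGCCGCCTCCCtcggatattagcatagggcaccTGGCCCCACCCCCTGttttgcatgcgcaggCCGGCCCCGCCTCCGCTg
Nr2c2 promoter, chr6:92092161-92092420, plus strand: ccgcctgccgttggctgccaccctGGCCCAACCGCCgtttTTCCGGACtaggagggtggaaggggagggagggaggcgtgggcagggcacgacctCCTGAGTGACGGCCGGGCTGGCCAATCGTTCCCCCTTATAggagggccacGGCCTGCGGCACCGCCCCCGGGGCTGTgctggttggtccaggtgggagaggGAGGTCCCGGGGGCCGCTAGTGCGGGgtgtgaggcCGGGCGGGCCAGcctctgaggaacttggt
Rxrb promoter, chr17:34031683-34031811, plus strand: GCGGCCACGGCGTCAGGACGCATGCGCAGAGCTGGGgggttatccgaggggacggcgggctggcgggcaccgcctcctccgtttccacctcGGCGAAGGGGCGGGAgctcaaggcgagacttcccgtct
Nr2e1 promoter, chr10:42583633-42583821, minus strand: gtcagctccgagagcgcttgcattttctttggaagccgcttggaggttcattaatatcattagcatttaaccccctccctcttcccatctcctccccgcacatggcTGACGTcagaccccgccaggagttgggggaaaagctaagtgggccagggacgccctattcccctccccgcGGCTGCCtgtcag
Region downstream of Thra, in an intron of Nr1d1, chr11:98773874-98774173, plus strand: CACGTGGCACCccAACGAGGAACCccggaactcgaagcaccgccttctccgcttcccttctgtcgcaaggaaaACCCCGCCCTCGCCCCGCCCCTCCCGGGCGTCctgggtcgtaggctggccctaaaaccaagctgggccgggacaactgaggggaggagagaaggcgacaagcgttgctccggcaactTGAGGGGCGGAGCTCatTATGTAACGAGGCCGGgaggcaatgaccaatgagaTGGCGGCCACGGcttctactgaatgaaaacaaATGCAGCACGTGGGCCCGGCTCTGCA
Region upstream of Nr2f1, chr13:78201581-78201860, minus strand: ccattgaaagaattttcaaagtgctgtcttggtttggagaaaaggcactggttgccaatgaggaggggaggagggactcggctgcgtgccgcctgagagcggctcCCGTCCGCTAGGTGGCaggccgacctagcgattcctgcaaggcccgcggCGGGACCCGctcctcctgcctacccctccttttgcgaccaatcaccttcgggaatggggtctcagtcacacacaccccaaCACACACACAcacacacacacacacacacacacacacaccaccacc
Region in an intron of Hnf4a, chr2:163534981-163535200, plus strand: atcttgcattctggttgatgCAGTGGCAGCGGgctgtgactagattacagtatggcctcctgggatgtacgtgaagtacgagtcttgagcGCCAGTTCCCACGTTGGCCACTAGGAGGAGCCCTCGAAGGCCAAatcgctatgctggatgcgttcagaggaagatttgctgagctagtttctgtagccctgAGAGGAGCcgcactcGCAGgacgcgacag

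Most nuclear receptor genes had an open promoter in this tissue, and the height ran from Esrra, near the top of all genes, to members with no peak. A promoter peak was present in both libraries at 25 of 39 members (64.1%), a share close to the 59.7% of all protein-coding genes, in 1 library at 5 members and in neither at 9. In these pooled tissues, fewer cells of a type and less open DNA per cell cannot be told apart. The median height over the members open in both libraries was 2.01 in replicate 1 and 2.32 in replicate 2, against 3.03 and 2.96 over all such genes. Member promoters were thus about as often open as those of all genes together, at heights below the median. The share over all genes rose with the number of start sites. With 1 start site 0 of 2 members were open in both libraries, against 29% of all such genes. With 2 to 3 sites it was 2 of 6 against 46.9%, and with 4 to 6, 10 of 15 against 76.5%. With 7 to 10 it was 12 of 15 against 90.2%, and with 11 or more 1 of 1 against 95%. Below 11 start sites the share of members was thus below that of all such genes, on small counts. The 23 members whose tallest peak was the same in both libraries had a median ratio of replicate 2 to replicate 1 of 0.995, with a range from 0.645 at Nr2f6 to 1.35 at Rxra, and 10 were higher in replicate 2. Their log2 heights had a Pearson correlation of 0.978 and a Spearman correlation of 0.968 between the libraries, which share strain, donor number and tissue. The plot of promoter heights by library shows all 39 members.

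**Figure D1:**
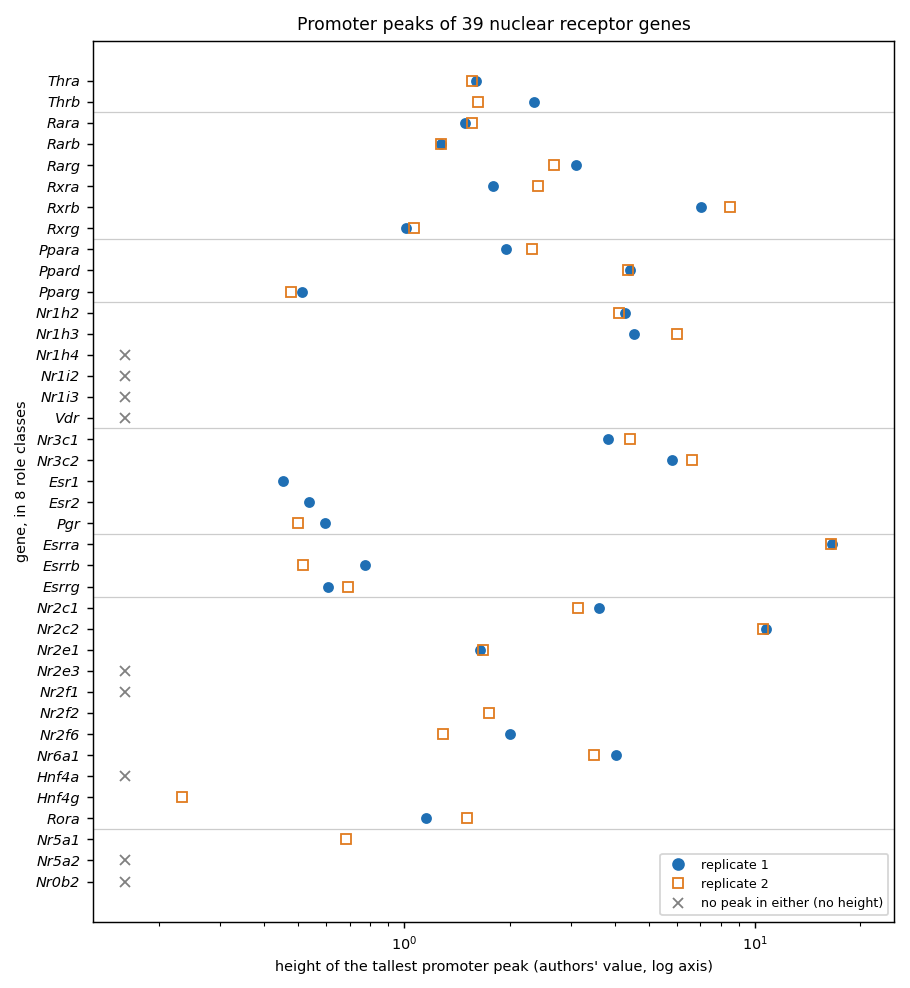
Promoter height (log axis, the authors' units per library) of the 39 nuclear receptor genes by role class, with 1 point for each library and a cross where neither library had a peak. Esrra (16.55 and 16.47) and Nr2c2 (10.76 and 10.53) were the 2 tallest, and none of Nr5a1, Nr5a2 and Nr0b2 had a peak in both libraries.

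Both thyroid hormone receptors, which bind triiodothyronine, had modest promoters. Thrb stood at 2.34 in replicate 1 and 1.63 in replicate 2 (1.98 ± 0.505, mean ± SD, n = 2), and Thra at 1.60 and 1.56 (1.58 ± 0.0287). Thrb stood above Thra in each library, by a small gap in replicate 2, but the order of their means turned round with windows of 2000 bp, at 2.57 for Thra and 1.98 for Thrb, and of 500 bp, at 1.58 and 1.495. All 6 retinoid receptors had a promoter peak in both libraries. Rxrb, one of the common heterodimer partners, was the tallest at 7.05 and 8.51 (7.78 ± 1.03), although its peak also lay within 1 kb of a start site of Slc39a7. The other partners were lower, Rxra at 1.79 and 2.42 and Rxrg, known for its expression in the striatum and the lowest of the class with all transcripts, at 1.02 and 1.07 (1.04 ± 0.0371). Among the retinoic acid receptors Rarg had 3.09 and 2.69, Rara 1.49 and 1.56, and Rarb 1.28 in each library. In both libraries Rarg stood above Rara and Rara above Rarb.

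The PPAR genes encode fatty acid receptors, and all 3 had a promoter peak in both libraries. Ppard, the broadly expressed form, had 4.42 and 4.35 (4.39 ± 0.0459), Ppara 1.96 and 2.32, and Pparg, the regulator of fat cell differentiation, 0.514 and 0.475 (0.495 ± 0.0269). This order held in each library, with gaps far larger than the difference between replicates. Of the 6 sensors, the liver X receptors were the 2 with a promoter peak in both libraries, of which Nr1h3 had none with basic transcripts only. Nr1h3 (LXR alpha) had 4.51 and 6.01 (5.26 ± 1.06), at a peak also within 1 kb of a start site of Acp2, and Nr1h2 (LXR beta) 4.26 and 4.10 (4.18 ± 0.119). The other sensors had no promoter peak in either library: Nr1h4, the bile acid receptor FXR, Nr1i2 and Nr1i3, the xenobiotic receptors PXR and CAR, and Vdr, the vitamin D receptor. In the cut rate track, which lists bases whose false discovery rate was below 0.05, no base was listed in the promoter windows of these 4 genes.

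Among steroid receptors the 2 that bind corticosteroids were the most open. Nr3c2, the mineralocorticoid receptor, had 5.82 and 6.62 (6.22 ± 0.570), and Nr3c1, the glucocorticoid receptor, 3.82 and 4.40 (4.11 ± 0.412). Nr3c2 stood above Nr3c1 in each library. Pgr, the progesterone receptor, was the lowest of those open in both libraries, with 0.597 in replicate 1 and 0.50 in replicate 2, at different peaks. The estrogen receptors had a peak in replicate 1 alone, of 0.454 at Esr1 and 0.537 at Esr2, and replicate 2 listed no base in their windows. The estrogen-related receptors, orphan members that control mitochondrial and energy genes, spanned almost the whole range of the members. Esrra had 16.55 and 16.47 (16.5 ± 0.0561), at the 99.4th and 99.3rd percentile of open promoters, against 0.776 and 0.517 at Esrrb (0.647 ± 0.183), known from mouse embryonic stem cells, and 0.609 and 0.692 at Esrrg (0.651 ± 0.0588). The order of the 2 low genes turned round between the libraries.

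The orphan factors ranged as widely. Nr2c2 (TR4) had 10.76 and 10.53 (10.6 ± 0.166), at the 95.1st and 94.6th percentile, and its relative Nr2c1 (TR2) 3.61 and 3.14. Nr6a1, the germ cell nuclear factor, had 4.02 and 3.48 (3.75 ± 0.386). Nr2e1 (Tlx), a factor of neural stem cells, had 1.65 and 1.68 at a peak also within 1 kb of Ostm1, and Nr2f6 had 2.01 and 1.29 (1.65 ± 0.505). Rora, a factor of cerebellar Purkinje cells, had 1.16 and 1.51 at different sites, so that the lowest orphan member open in both libraries was Rora in replicate 1 and Nr2f6 in replicate 2. Both COUP-TF genes, which pattern the cortex, were among those not counted in both libraries. Nr2f2 had 1.74 in replicate 2, and the overlapping peak of 2.22 in replicate 1 lay just past the window, the region they form together starting 928 bp from a start site. Nr2f1 had no promoter peak and no listed base in 7386 bp of promoter windows, whereas it had a tall region upstream, centred at -1.96 kb from its start. Hnf4g had 0.234 in replicate 2 alone, and Nr2e3, a photoreceptor factor, and Hnf4a, a liver factor, had no promoter peak. Of the remaining genes Nr5a1, the steroidogenic factor, had 0.684 in replicate 2 alone, and Nr5a2 and Nr0b2, both known from liver, had none.

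GC content was taken over the 500 bp on each side of all annotated start sites of a gene together. The members with a promoter peak in both libraries had a median of 55.5% (range 44.7 to 70.4%). The 5 members with a peak in 1 library had 48% (44.2 to 61.8%), the 9 members with none 49.2% (47.7 to 56.9%), and all protein-coding genes 51.3%. The medians of the observed to expected CpG ratio were 0.514, 0.453, 0.289 and 0.428 in these same sets. The ranges of GC content overlapped.

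Some members had several separate open regions near their start sites, and more than 1 region can have the same nearest start site. At least 2 separate shared promoter regions were found at 14 of 39 members (35.9%), against 25.4% of all genes. The number of start sites went with this count. Of 15 members with 4 to 6 start sites 5 had 2 or more regions, against 31.5% of all such genes, and of 15 with 7 to 10 start sites 8 did, against 43.8%. Together 52 shared promoter regions lay at 26 members, 29 of them over a start site, and 35 held a footprint found in both libraries. The tallest region lay over 1 kb from the start of the gene at 13 members and over 10 kb at 7, namely Esrrb, Esrrg, Nr3c1, Rara, Rarb, Rarg and Rxra. The places and footprints of promoter regions were not counted over all genes, so these numbers do not set the members apart. When regions had to be at least 1000 bp apart, 8 members had 2 or more, and with basic transcripts only 10 did.

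Nr3c1 had the most, with 6 shared regions in mm10 on chromosome 18 between positions 39486941 and 39491820, from 27.7 to 32.3 kb downstream of the first start of the gene. These regions cover the cluster of alternative first exons of the glucocorticoid receptor. In the order of transcription their heights in replicate 1 and replicate 2 were 3.82 and 4.40, 2.14 and 2.06, 1.43 and 1.89, 2.19 and 1.59, 0.884 and 0.676, and 0.908 and 0.876. The first of these, which no annotated start site overlapped, stood above all others in both libraries, and the last 2 were the lowest in both. The first start of the gene itself had no shared region. The map of these regions shows their order.

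**Figure D2:**
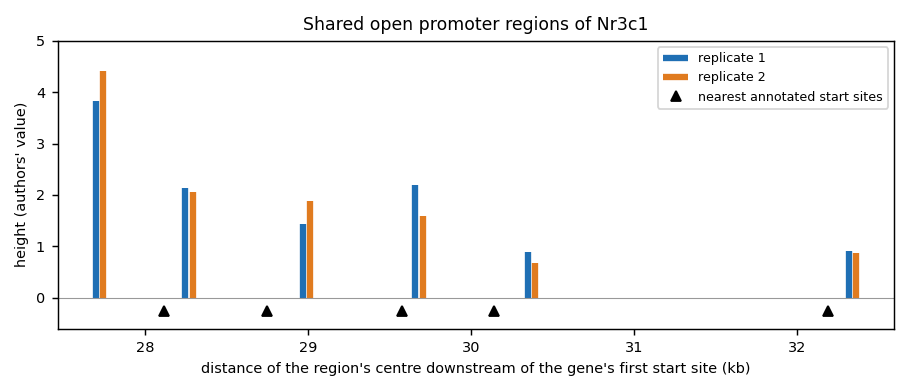
Height (authors' units per library) of the 6 shared promoter regions of Nr3c1 against distance from the first start of the gene in kb, with bars for the 2 libraries and triangles for the annotated start sites nearest to them; bars are shifted slightly to part the libraries. The region nearest the gene start was the tallest in both libraries (3.82 and 4.40).

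Rora followed with 5 regions. Of these, 4 lay within 1.64 kb of its first start. The last, a region at chromosome 9 69289661 to 69290000, over the start of the transcript Rora-202 636 kb downstream of the first start, had 1.16 and 1.18, close to the 1.10 and 1.51 of the first promoter. Nr6a1 had 4, of which 3 lay within 1.27 kb of its start and 1 of 1.28 and 0.751 lay 188 kb inside the gene. Rara, Rarg and Thra had 3 each. At Rara the tallest lay 31.9 kb inside the gene and 532 bp from the start of Rara-202. Rxra had 0.740 and 0.734 beside its first start and 1.79 and 2.42 at the start of Rxra-205, a processed transcript, 63.9 kb inside. Where such a transcript is left out of the annotation, the promoter height of Rxra was 0.737, below that of Rxrg. Rarb was open at its internal promoters, 244 kb downstream of its first start, where the RAR beta 2 form is known to begin.

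Distal regions, shared regions over 1000 bp from every start site of a protein-coding gene, were counted over each gene and 10 kb on both sides. Of the 39 members 29 had at least 1 (74.4%), against 46% of all protein-coding genes. The density had a median of 0.186 regions per 10 kb over members, against 0 over all genes. Long genes hold more such regions. Within length classes 3 of 5 members under 10 kb had a region against 26.3% of all genes, 9 of 13 from 10 to 50 kb against 45.8%, 7 of 9 from 50 to 100 kb against 67.4%, 4 of 6 from 100 to 300 kb against 84.4%, and 6 of 6 over 300 kb against 95.8%. The share of members was thus above that of all genes in the 3 classes up to 100 kb and below it from 100 to 300 kb, on small counts. The plot of distal counts against gene length shows this spread.

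**Figure D3:**
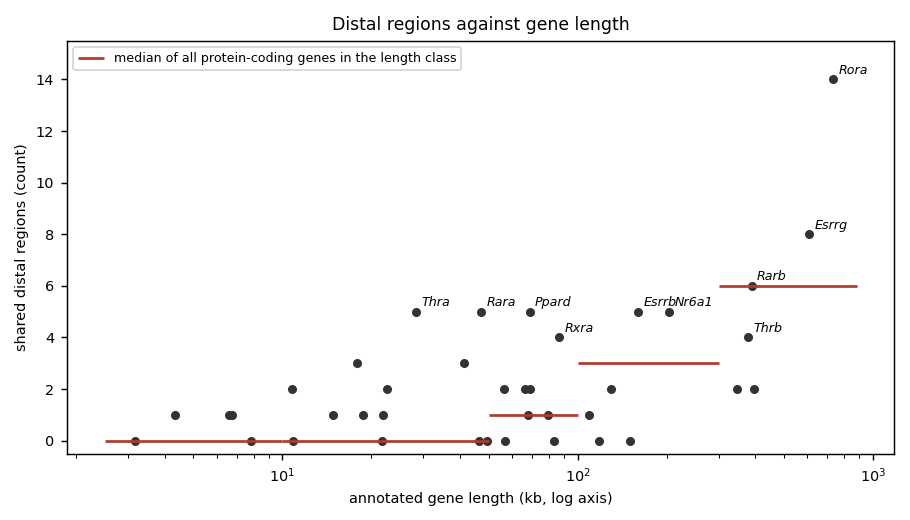
Number of shared distal regions of each nuclear receptor gene against gene length in kb (log axis), with the median of all protein-coding genes in each length class as a line. Rora, the longest at 734 kb, had the most with 14.

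The members held 92 different distal regions, 70 inside a member and 22 in the flanks. A footprint of both libraries was in 62 of them, a share that was not counted over all distal regions. The median height of the 92 was 1.02 in replicate 1 and 0.922 in replicate 2, against 0.920 and 0.851 over all 34578 distal regions. Each library on its own gave more, 145 in replicate 1 and 166 in replicate 2. The shorter peak list of the authors gave 49, and flanks of 50 kb gave 172. Rora had 14 regions, Esrrg 8 and Rarb 6, and Thra, Rara, Ppard, Esrrb and Nr6a1 had 5 each. Counted per 10 kb, Thra led with 1.03, then Nr2e3 with 0.792, Rara with 0.745, Nr2f1 with 0.650, Ppard with 0.563 and Rxrg with 0.490. This order rests on the flanks: within the gene span alone Thra had 2 regions, Nr2e3 1, Rara 4 and Nr2f1 none, and Rara then stood above Thra per 10 kb. Replicate 2 alone gave 16 regions at Rara, against 6 in replicate 1 alone. The 10 members without one were Nr1i2, Nr2c1, Nr2c2, Nr2e1, Nr2f6, Nr5a2, Nr0b2, Esr2, Esrra and Hnf4g. The tall promoters of Esrra and Nr2c2 therefore stood without a shared distal region, as did Nr1i2, Nr5a2 and Nr0b2, which had no promoter peak.

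The tallest distal region of any member was the one printed above beside Thra, at chromosome 11 98773861 to 98774220, with 12.25 in replicate 1 and 13.54 in replicate 2 (12.9 ± 0.914), at the 99.9th percentile of distal regions in each library. It lies downstream of Thra, centred 33.4 kb from the start of Thra, in an intron of Nr1d1. This neighbouring gene on the other strand encodes the clock repressor Rev-erb alpha. The region lies just past the 1000 bp limit from the start of Nr1d1 at 98775333, where the promoter peak of Nr1d1 began at 98775241. The region therefore cannot be assigned to Thra alone. All 7 of its footprints were found in both libraries. The E-box CACGTG, a sequence bound by clock activators, occurred 3 times in shared footprints, at 98773859 to 98773864, 98773874 to 98773879 and 98774154 to 98774159, and the last 2 are in capitals in the printed stretch. A region in an intron of Thra itself, at 98747401 to 98747680, had 6.22 and 5.43. The Thra count differed between libraries, 5 regions in replicate 1 against 25 in replicate 2.

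At Nr2f1 the region printed above had 4.26 and 4.14 (4.20 ± 0.0894), at the 98.8th and 98.7th percentile, and a region farther upstream, centred at -4.01 kb, had 1.53 and 1.33. Both lie within 1 kb of a start site of a gene that is not protein-coding. By the mean of the libraries, the tallest at Rora, 287 kb inside the gene, had 2.44 and 1.10, a wide gap between the libraries. The tallest at Esrrg had 1.00 and 1.09, at Rarb 1.95 and 1.33, at Rara 2.17 and 2.02, at Esrrb 1.35 and 1.40, and at Nr6a1 1.03 and 0.884. At Ppard the tallest had 3.62 and 3.80 and lay in an exon of Def6, at Nr2e3 1.67 and 1.33, and at Rxrg 1.49 and 1.68. Those of the long genes Rora, Esrrg, Rarb, Esrrb and Nr6a1 were all lower than the tallest at Thra, Nr2f1 and Ppard. Of the 6 regions of Rarb, 2 lie where the gene overlaps Top2b.

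**Figure D4:**
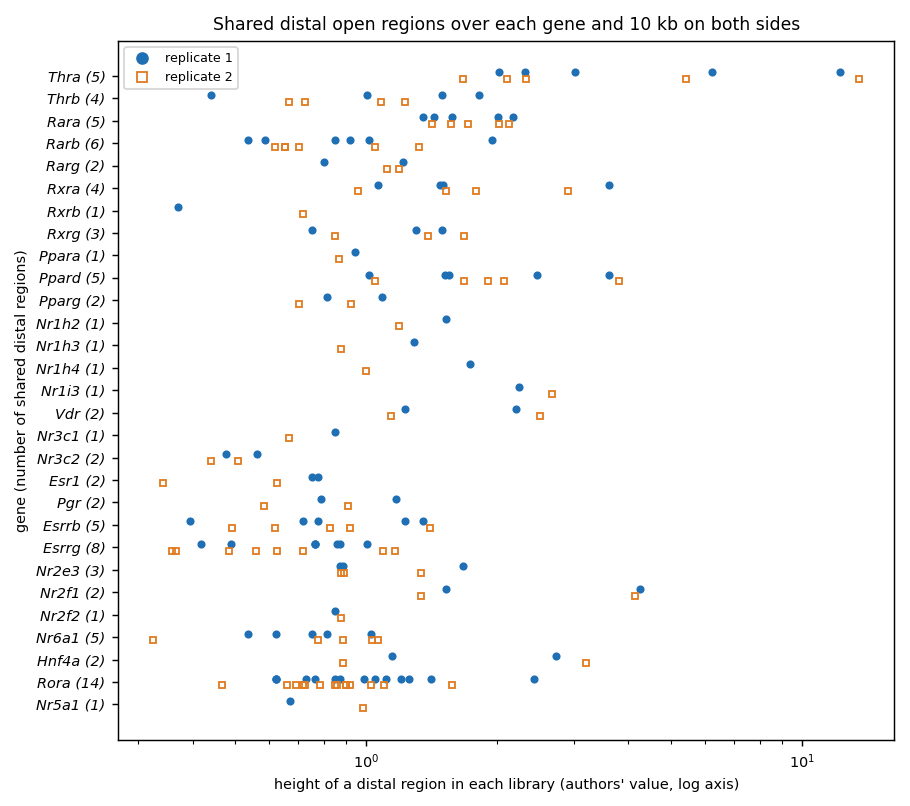
Height (log axis, authors' units per library) of the shared distal regions of each nuclear receptor gene that has at least 1, with 1 point for each region and library and the number of regions after the name. The region counted at Thra that lies in an intron of Nr1d1, near the start of Nr1d1 (12.25 and 13.54), stood above all others.

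Of the 9 members with no promoter peak, 6 had a shared distal region: Nr1h4, Nr1i3, Nr2e3, Nr2f1, Vdr and Hnf4a. Over all protein-coding genes, open promoter or not, the share with such a region was 46%. The share among the 7933 protein-coding genes with no promoter peak was not counted, so 6 of 9 cannot be called unusual. Hnf4a, a gene of liver and gut, had 2 in its introns, of which the printed one had 2.72 and 3.19 (2.96 ± 0.334) with 4 footprints of both libraries. The tallest at Vdr had 2.21 and 2.51, in the flank past the end of the gene, and that at Nr1i3 2.25 and 2.68, in an intron of its neighbour Tomm40l. At these 6 genes open DNA thus lay within the gene or its flanks while the start sites had no peak, and which gene each region acts on was not tested.

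A footprint present in both libraries, by an overlap of at least 1 bp, was found in promoter windows of 20 of 39 members (51.3%), close to the 54% of all protein-coding genes. Members had 155 promoter footprints in replicate 1 and 301 in replicate 2, against 82815 and 110002 over all genes. Of those in replicate 1, 108 were shared (69.7%), against 66.9% over all genes. The surplus of replicate 2 was thus larger in proportion at members, and the shared part of its own footprints was not counted. Nr3c1 and Nr6a1 had the most shared ones, 13 each counted on replicate 1, followed by Nr2c2 and Esrra with 9 and Nr3c2 and Ppard with 8. At Nr3c1 17 footprints were listed in replicate 1 and 34 in replicate 2, and at Nr6a1 15 and 12. Replicate 2 also had many more at Rxrb, with 6 and 23 of which 5 were shared, at Rara, with 3 and 19 and 3 shared, at Thra, with 5 and 19 and none shared, and at Rora, with 9 and 23 and 1 shared.

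In the cut rate track some members also differed between the libraries. Replicate 1 listed 443 bases in the promoter windows of Thra and replicate 2 listed 2333, against 278 and 1849 at Rara, 278 and 1287 at Nr2f6, 1111 and 3869 at Rxrb, 68 and 1372 at Pparg and 29 and 1593 at Pgr. At Nr3c1 (3827 and 3676), Nr2c2 (1887 and 1800) and Rora (2160 and 2747) the libraries were closer. The smallest false discovery rate in the windows was 0.0174 in replicate 1 and 8.73e-11 in replicate 2 at Rara, against 1.34e-80 and 1.05e-65 at Esrra. The part of library depth in these gaps was not tested. The plot of promoter footprints by library shows the counts of each member.

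**Figure D5:**
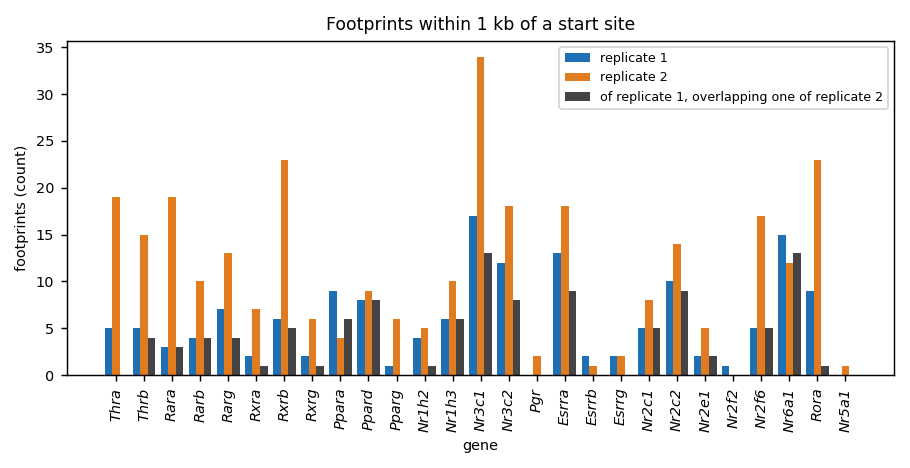
Number of footprints in the promoter windows of each nuclear receptor gene with any, in replicate 1 and replicate 2, and the number of replicate 1 that overlap one of replicate 2. Nr3c1 (17 and 34) and Nr6a1 (15 and 12) had 13 shared each, and Thra (5 and 19) had none.

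Motif letters were counted on both strands in the 200 bp at the centre of each region and in shared footprints with no allowance for mismatch, and a match is not a bound site. The hexamer AGGTCA, to which many receptors bind, was in 6 of 52 member promoter regions (11.5%), against 6.59% of all 19081 promoter regions, and in 4 of 92 member distal regions (4.35%), against 7.20% of all. Shared footprints of members held it in 0 of 99 at promoters, which allows a share of up to 3.03%, and in 0 of 115 in distal regions, which allows up to 2.61%, against 0.56% and 0.72% of all such footprints. The counts are thus too small to part members from other genes. AGAACA was in 2 of 52 member promoter regions (3.85%), against 7.39% of all, and in 14 of 92 distal ones (15.2%), against 18.4%. The GC box GGGCGG was in 26 of 52 promoter regions (50%), against 49.6% of all, and in 24 of 99 promoter footprints (24.2%), against 22.6%. Of the letters searched it was the most frequent in members' promoter footprints, at a share close to that of all promoter footprints.

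The cAMP response element TGACGTCA was in 2 of 52 member promoter regions (3.85%), against 2.53% of all, in each case overlapped by footprints of both libraries, at Nr2e1 (chromosome 10, 42583708 to 42583715) and Nr6a1 (chromosome 2, 38926419 to 38926426). The E-box was in 3 of 52 promoter regions (5.77%), against 7.87%, and the AP-1 site TGANTCA in none of 52, which allows up to 5.77%, against 3.36%. AP-1 sites were in 6 of 92 distal regions (6.52%), against 10.7%. The NFI site, TTGGC and GCC parted by 5 free bases, was in 2 of 52 promoter regions (3.85%), against 1.81% of all, and 3 of 92 distal regions (3.26%), against 3.23%. The core of the site of the insulator protein CTCF, searched only after the printed sequences had been seen, as CC, 3 free bases, AG, 2 free bases and GGC, was in 9 of 52 promoter regions (17.3%), against 12.1%, and 21 of 92 distal regions (22.8%), against 18.3%. In shared footprints it was in 7 of 99 (7.07%), against 3.29%, and 14 of 115 (12.2%), against 11.8%. The printed stretches of Esrra and Nr2f1 each hold it, in capitals in both.

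Genes around the receptors in the pathway were counted in the same way, with no matching by number of start sites. Among other receptor genes of the superfamily, Nr1d1 had a promoter of 12.20 and 13.69, Nr0b1 had 0.250 in replicate 2 alone, and Nr1h5 had none. All 16 coregulators had a promoter peak in both libraries, against 59.7% of all protein-coding genes, and 14 had at least 2 open promoters, against 25.4%. They had from 2 start sites (Ppargc1b) to 23 (Ncor1), and over all genes both shares rose with that number. Their heights ran from Carm1, an arginine methyltransferase (10.48 and 9.30), to Ncoa6 (0.681 and 0.767), the lowest in replicate 1, and Ppargc1a (0.740 and 0.642), the lowest in replicate 2. Genes of ligand supply had a promoter peak in both libraries in 8 of 20 cases (40%), against 59.7% of all genes. Cyp46a1, which makes an oxysterol ligand of the liver X receptors in neurons, had 16.07 and 16.13, and Srd5a1, a steroid reductase, 14.35 and 12.86, against 0.478 and 0.350 at Aldh1a1, an enzyme of retinoic acid synthesis. Known target genes had such a peak in 11 of 14 cases (78.6%), against the same 59.7%. Per1, a target of the glucocorticoid receptor, was the tallest (19.32 and 20.79), and Cyp7a1 and Cyp3a11, targets in liver, and Greb1, an estrogen target, had none.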

How the data were processed

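DNase-seq peaks, footprints and cut rates of 2 frontal cortex libraries in mm10 were deposited by the authors per library and not pooled, per the deposited file descriptions. The peak heights are the authors' signal values, scaled per library. The values of the deposited cut rate track are false discovery rates (q-values) below 0.05 for runs of bases, and each deposited footprint has 0.01 as its p-value, which was taken as a threshold. No source used here names the aligner or the callers.

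The longer peak list was used, and the shorter one as an alternative. Start sites came from GENCODE M21 (93513 sites of protein-coding genes). Intervals were joined and counted with Python 3.11.15, pandas 2.3.3 and numpy 2.4.6, and plots were drawn with matplotlib 3.10.9. The interval functions were checked on simulated intervals. Named were the tallest and lowest promoter of each class, all members open in 1 library or none, and the leaders in promoters, distal regions and footprints. The members and lists were chosen with earlier results of these data known. Other widths, transcript sets, flanks and overlaps were tried as alternatives. Some genes of the marker and pathway lists are not reported here.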

Additional observations from a re-analysis of the deposited data

How the results depend on the processing

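The 25 members with a promoter peak in both libraries were 25 with windows of 500 bp, 29 with 2000 bp, where Esr1, Nr2e3, Nr2f1 and Nr2f2 were gained, 24 with basic transcripts, where Nr1h3 was lost, and 19 with the shorter peak list, where Esrrg, Nr2f6, Pgr, Pparg, Rara and Thra were lost; single libraries gave 27 to 28. The 14 members with at least 2 promoters became 13 with windows of 500 bp, 19 with 2000 bp and 10 with basic transcripts only. They became 8 with the shorter list and 8 with regions at least 1000 bp apart (single libraries 15 to 19). The 92 distal regions became 172 with flanks of 50 kb, 49 with the shorter list, and 145 to 166 in single libraries, changes that follow from more sequence searched, fewer peaks, and no need for a second library. Members with a distal region ranged from 21 to 36, and those with a shared promoter footprint from 14 to 26. Read depth was not used here, so no counting error is set beside a height. No paired analysis was possible because there was 1 group.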
